A study of Homo sapiens with 6 samples.

Results

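The clustered protocadherins are 53 cell surface adhesion genes that lie side by side on human chromosome 5. All 53 were found by symbol among the 19977 genes of the count files, 15 in the alpha cluster (PCDHA1 to PCDHA13, PCDHAC1 and PCDHAC2), 16 in the beta cluster (PCDHB1 to PCDHB16) and 22 in the gamma cluster (PCDHGA1 to PCDHGA12, PCDHGB1 to PCDHGB7 and PCDHGC3 to PCDHGC5). In the GENCODE 44 annotation of GRCh38 they span chr5:140786136-141512977 on the plus strand, a stretch of 726.842 kb. The RNA came from NCRM-1, a wild type human induced pluripotent stem cell (iPSC) line that was reprogrammed episomally from cord blood cells (CD34+). Cells were seeded singly into vertical wheel bioreactors and cultured for 4 days as aggregates in suspension, with 50% of the medium replaced on day 2. The 3 PEG and HS libraries came from Essential 8 (E8) medium with 10 mg/ml polyethylene glycol (PEG) and 0.1 µg/ml heparin sodium salt (HS), and the 3 Control libraries from E8 medium alone. Both groups were thus the same line in the same vessel type, so the additives were the labelled difference. The description of the treatment in the labels names both additives for all 6 libraries, while 3 of them carry the treatment label Control, and that label was followed here. The labels read as 1 bioreactor for each medium, which means that medium and vessel cannot be told apart and that p-values measure the spread between these samples, which may be technical.

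Each clustered protocadherin is a cadherin-like protein with a large extracellular part, a membrane-spanning stretch and a cytoplasmic tail. In the alpha and gamma clusters every gene has its own large first exon, which encodes the extracellular part, and this variable exon is spliced to a set of short constant exons shared by the whole cluster, whereas beta genes have no constant exons. Neurons are known to choose among the variable promoters largely at random, under CTCF, cohesin and DNA methylation, and the combination displayed by a cell takes part in telling its own branches from those of other neurons. The C-type genes (PCDHAC1, PCDHAC2, PCDHGC3, PCDHGC4 and PCDHGC5) are known for steadier use in many neurons.

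The constant exons decide what a count per gene can hold. The alpha cluster has 3 constant exons, of 59, 89 and 2721 bases, each held by all 15 alpha genes of the annotation, and the gamma cluster has 3 constant exons, of 59, 89 and 2029 bases, each held by all 22 gamma genes. The first constant exons of the clusters are equally long, and they are shown here because a read within either one fits every gene of its cluster. Both are printed on the plus strand of GRCh38, with the bases that are the same in both in capitals.
alpha cluster, first constant exon (chr5:140978949-140979007): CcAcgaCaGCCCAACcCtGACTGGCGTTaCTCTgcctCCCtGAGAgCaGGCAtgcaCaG
gamma cluster, first constant exon (chr5:141494807-141494865): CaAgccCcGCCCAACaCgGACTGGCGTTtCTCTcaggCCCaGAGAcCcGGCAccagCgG
At 39 of the 59 positions the base was the same, which is 66.1%. Exon bases covered by no other gene of the count table were 43.4% to 80.8% of the exon bases of an alpha gene, 35.6% to 72.5% of a gamma gene and 90.5% to 100% of a beta gene. Of the 31-base words in the transcripts of an alpha gene, 18.0% to 52.2% occurred in all 15 alpha genes, and of those of a gamma gene, 24.9% to 45.3% occurred in all 22. Words shared with genes that are no members made up 6.07% (PCDHB1) to 22.5% (PCDHB8) of a beta gene and 16.5% of PCDHA10. The pseudogene PCDHA14, which is not in the count table, covers 14.7% of the exon bases of PCDHA10 on the same strand. How the authors counted reads on constant exons is not given in the sources used here. A read counted for every gene that holds it would set a common minimum in its library, and the lowest count of an alpha gene in a library was 4 to 14 and of a gamma gene 4 to 17 over the 6 libraries, so no more reads than that can have been added to every gene of a cluster. Reads split unequally among the genes of a cluster, or given to only some of them, are not bounded in this way. Variable exons are also alike among neighbours. Words shared with some but not all members made up 55.9% of PCDHB8, 42.1% of PCDHGB4, 41.8% of PCDHB10 and 30.4% of PCDHGA8, so that the counts of these 4 genes are uncertain where reads fit several genes. Annotated exons of PCDHGB4 and PCDHGA8 (own exon bases 35.6% and 48.7%) also overlap on the chromosome, so part of their shared words are the same bases and not alike ones. The 4 genes were named for this share after it was seen.

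Most promoters of the variable exons, but not all, are known to hold a conserved element with the 4-letter core CGCT, part of a CTCF binding site. Starts and promoters were taken from RefSeq (GRCh38), which held 47 of the 53 members and 27305 promoters in all. Within 30 to 100 bases before the start, a zone chosen after the sequences had been seen, CGCT stood on the gene strand of 43 of the 47 promoters (91.5%) and of 21.6% of all promoters. On the opposite strand of the same zone it stood in 9 of 47 (19.1%) and in 21.6% of all promoters. The longer letters CGCTG, which contain the first motif, stood on the gene strand of the zone in 35 of 47 (74.5%) and in 9.19% of all promoters. On either strand of the whole 250 bases, CGCT was found in 45 of 47 (95.7%), against 64.2% of all promoters. A match of so few letters is a description of the window and not a site.

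**Figure D1:**
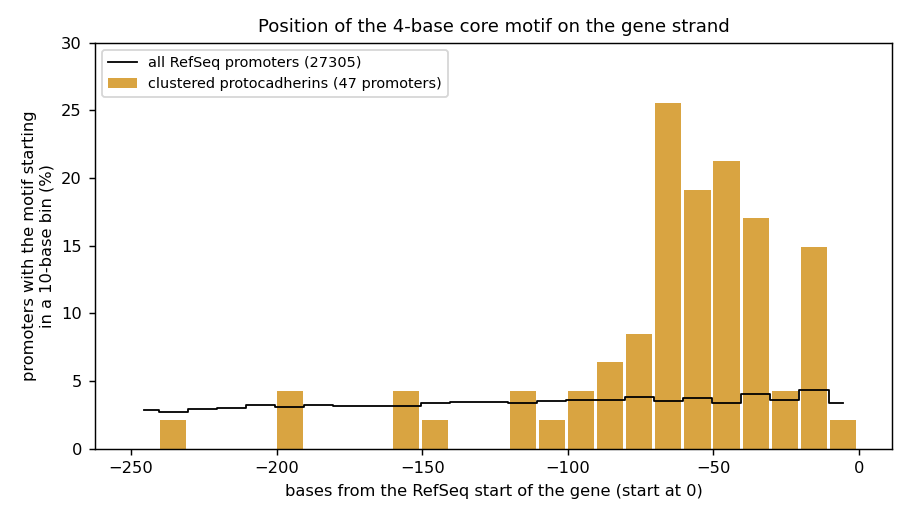
Share of promoters (vertical axis, %) in which the 4-base core motif started in each 10-base bin before the RefSeq start (horizontal axis, bases), on the gene strand. Bars are the 47 matched clustered protocadherins and the line is all 27305 RefSeq promoters; the bars were highest at 61 to 70 bases before the start, where 25.5% of the members and 3.52% of all promoters had it.

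The windows below show the motif, in capitals, with 21 bases before and 20 after it. They cover genes with high levels per length that had the core in the zone and a window outside transcribed sequence. The gene with the lowest level per length in each cluster, PCDHA7, PCDHB1 and PCDHGA7, was added. All windows are on the plus strand of GRCh38.
PCDHA12 (chr5:140875239-140875283): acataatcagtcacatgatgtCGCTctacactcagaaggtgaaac
PCDHAC2 (chr5:140966414-140966458): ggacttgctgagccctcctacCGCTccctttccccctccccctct
PCDHA4 (chr5:140806974-140807018): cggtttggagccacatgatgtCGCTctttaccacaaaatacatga
PCDHAC1 (chr5:140926215-140926259): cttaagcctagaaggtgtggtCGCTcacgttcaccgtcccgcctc
PCDHA2 (chr5:140794776-140794820): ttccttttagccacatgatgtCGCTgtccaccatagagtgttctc
PCDHA7 (chr5:140834167-140834211): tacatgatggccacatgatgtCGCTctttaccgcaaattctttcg
PCDHB2 (chr5:141094539-141094583): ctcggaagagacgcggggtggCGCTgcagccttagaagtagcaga
PCDHB15 (chr5:141245309-141245353): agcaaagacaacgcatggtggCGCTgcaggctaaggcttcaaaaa
PCDHB14 (chr5:141223258-141223302): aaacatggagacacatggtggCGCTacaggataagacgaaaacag
PCDHB10 (chr5:141192294-141192338): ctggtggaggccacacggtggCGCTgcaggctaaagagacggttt
PCDHB1 (chr5:141051269-141051313): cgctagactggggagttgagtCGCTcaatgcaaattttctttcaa
PCDHGC3 (chr5:141475894-141475938): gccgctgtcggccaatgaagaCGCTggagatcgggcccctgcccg
PCDHGB6 (chr5:141407943-141407987): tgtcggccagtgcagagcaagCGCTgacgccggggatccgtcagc
PCDHGA10 (chr5:141412926-141412970): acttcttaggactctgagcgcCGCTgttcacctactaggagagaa
PCDHGB4 (chr5:141387612-141387656): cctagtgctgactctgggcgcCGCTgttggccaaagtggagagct
PCDHGA7 (chr5:141382644-141382688): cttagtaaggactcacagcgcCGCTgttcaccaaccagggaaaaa
The windows of PCDHA12, PCDHA4, PCDHA2 and PCDHA7 share the 10 letters just before the core, those of PCDHB2, PCDHB15, PCDHB14 and PCDHB10 share 5, and those of PCDHGA10, PCDHGA7 and PCDHGB4 share 4. These sets were picked after the windows were seen, and over all 9 windows of variable alpha genes the shared run was 5 letters, over all 12 of beta genes 0, over all 10 of gamma A genes 0 and over all 5 of gamma B genes 0. The windows were picked for holding the core, so its presence in high and low genes such as PCDHA12 and PCDHA7 says nothing about level. The matched promoters without it in the zone were those of PCDHA9, PCDHB5, PCDHB8 and PCDHGB2. Of these, PCDHB5 ranked high in the beta cluster per length and PCDHB8 low.

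The 6 libraries held 26991279 to 36185138 counts on genes, and the 16505 genes whose counts summed to 10 or more were tested. All 53 members passed this filter, with totals of 28 (PCDHB8) to 6379 (PCDHB2) counts over the 6 libraries. Over all genes tested, 25.3% were called at an adjusted p under 0.05 (edgeR's quasi-likelihood test, Benjamini-Hochberg), 12.2% higher and 13.1% lower in PEG and HS, and 21.1% of the 9407 genes within the members' range of levels were called. The share called depended on the level, with 32.4% of genes at 10 CPM (reads per 1000000 reads counted) or more, 21.6% from 1 to 10 CPM and 5.36% under 1 CPM. Markers of pluripotent stem cells were present in every library, from NANOG at 126 CPM in Control to DNMT3B at 2239 CPM in PEG and HS, and 3 of the 8 were called higher (POU5F1, NANOG and ZFP42) and 3 lower (SOX2, LIN28A and SALL4). All 8 neural progenitor markers were called lower in PEG and HS by edgeR and limma-voom, and 7 by DESeq2, which gave HES5 no adjusted p, with a summed level of 563 to 602 CPM against 761 to 788 CPM in Control. Of the 7 neuron markers tested 2 were called lower (STMN2 and MAP2), with a sum of 273 to 288 CPM against 294 to 304 CPM. The 6 mesoderm markers summed to 5.47 to 5.66 CPM in PEG and HS and 6.19 to 7.40 CPM in Control, without overlap. Of these, 2 (TBX6 and HAND1) were called lower, HAND1 without an adjusted p by DESeq2. MIXL1 went the other way, at 1.83 to 2.19 CPM in PEG and HS and 1.15 to 1.72 CPM in Control, without overlap. Its log2 fold change was 0.44 (SE 0.20), and edgeR, DESeq2 and limma-voom did not call it. The 4 endoderm markers summed to 2.83 to 2.91 CPM against 3.52 to 4.19 CPM, also without overlap, with 0 of the 3 tested called by edgeR, DESeq2 or limma-voom and 1 at an unadjusted p under 0.05 by each. The 3 astroglia markers, at 1.66 to 2.23 CPM against 1.85 to 2.33 CPM, overlapped, and none was called or had an unadjusted p under 0.05 by any of these tools. No list had a marker at 0 in all 6 libraries. In bulk RNA, fewer cells of a type and less RNA per cell cannot be told apart.

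Only PCDHA12, PCDHA13 and PCDHGB2 differed between the media beyond the test's threshold, all 3 of them higher in PEG and HS, and the other 50 members were not called. That is 5.66% of the members, against 25.3% of all genes tested and 21.1% of genes at comparable levels. The levels were ordered much alike in both media. In each cluster 3 genes held about 50% or more of the summed CPM, PCDHAC2, PCDHA12 and PCDHA4 in alpha, PCDHB2, PCDHB15 and PCDHB5 in beta and PCDHGC3, PCDHGB6 and PCDHGB7 in gamma. No member was called lower by edgeR, where 1 had an unadjusted p under 0.05 in that direction. DESeq2 and limma-voom each called 3 higher and 0 lower as well.

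**Figure D2:**
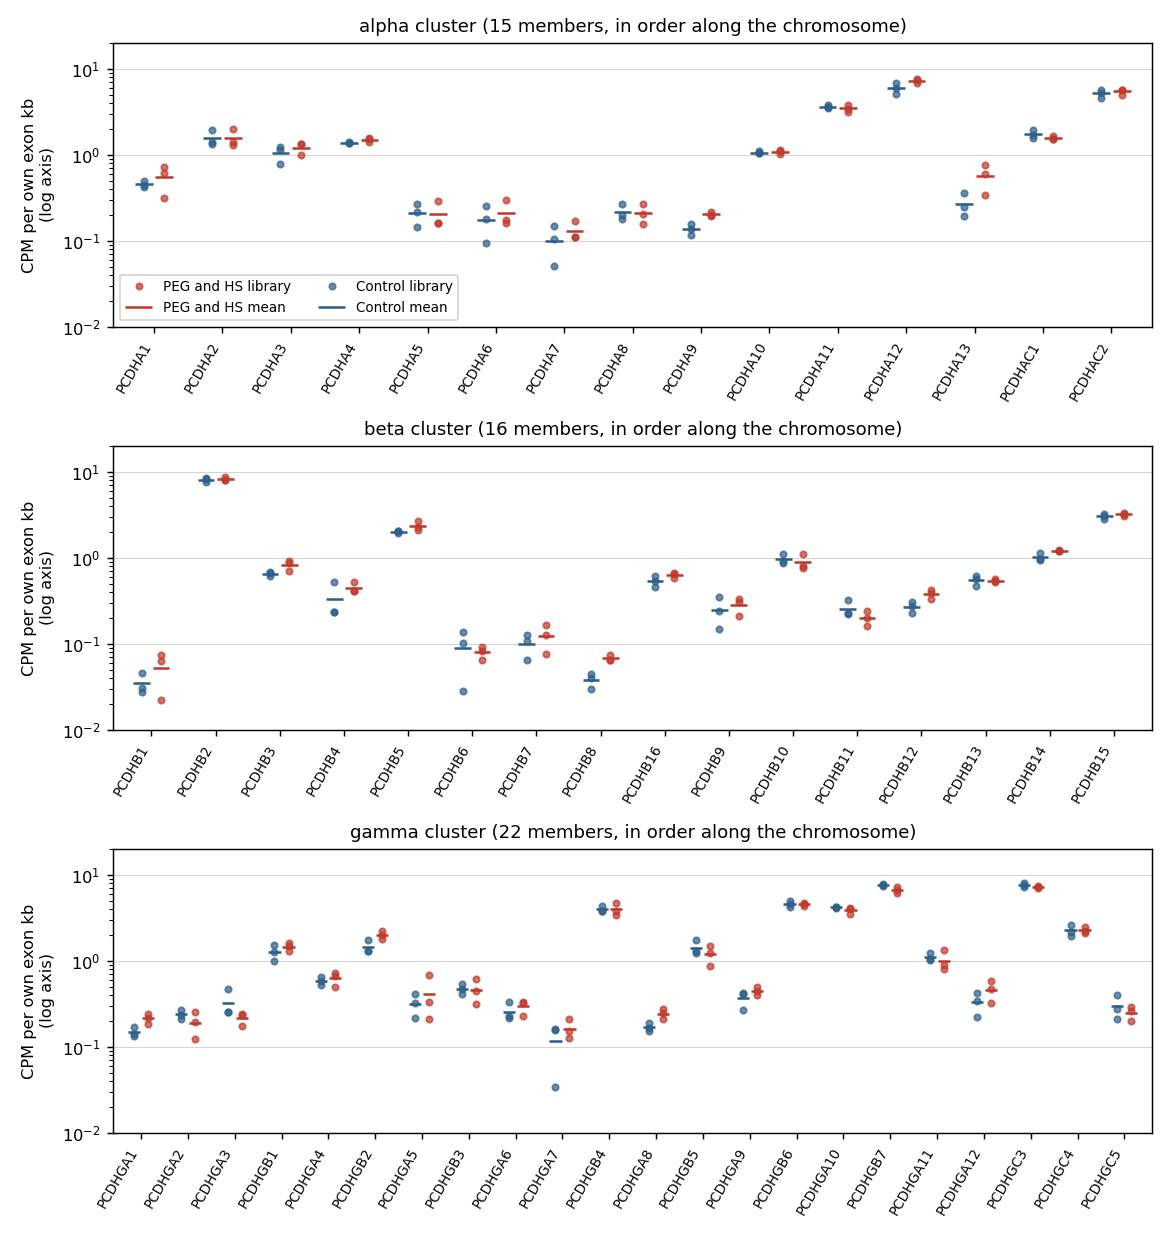
Level of each clustered protocadherin in each of the 6 libraries (vertical axis, CPM per kb of exon that no other gene of the count table covers, log axis), in order along the chromosome (horizontal axis). Points are libraries and lines the mean of 3 libraries of a medium; levels run from 0.0441 (PCDHB1) to 8.17 (PCDHB2) as means over the 6 libraries, and the media lie close together at most genes.

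To compare genes, CPM were divided by the length, in kb, of the exon bases that no other gene of the count table covers. This length takes in the exons of all annotated transcripts of a gene, whether used or not, so ranks per length depend on the annotation. On this scale the highest member stood 185 times above the lowest, and the median of the 53 was 0.549 CPM per own kb. Within the alpha cluster the spread was 56.7 times and within the gamma cluster 52.7 times. Any reads from constant exons stay in the CPM of alpha and gamma genes, while those bases are left out of the length. Levels of these genes per own kb may thus be too high beside beta genes. Before division by length, 11 members had a mean of 10 CPM or more, 27 lay from 1 to 10 CPM and 15 below 1 CPM. Correlated over the 53 members, the log2 CPM of 2 libraries gave a Pearson r of 0.969 to 0.982 within a medium and of 0.966 to 0.980 between the media, where all points share the gene lengths and each library its depth.

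In the alpha cluster PCDHA12 led in 5 of the 6 libraries and PCDHAC2 in the other. PCDHA12, a variable alpha gene, had 7.19 ± 0.41 CPM per own kb in PEG and HS and 5.95 ± 0.91 in Control (SD, n = 3). PCDHAC2, the C-type gene next to the constant exons, had 5.45 ± 0.39 and 5.17 ± 0.59. PCDHA11 followed at 3.45 ± 0.30 and 3.62 ± 0.12, the third in all 6 libraries. The ranges of PCDHA12 (5.07 to 7.52) and PCDHAC2 (4.54 to 5.72) overlapped over the libraries, while that of PCDHA11 (3.18 to 3.77) lay below both. PCDHAC1, the other C-type alpha gene, had 1.58 ± 0.07 and 1.73 ± 0.20 CPM per own kb, and PCDHA2 1.57 ± 0.38 and 1.57 ± 0.33. PCDHA4 was close to these at 1.5 ± 0.09 and 1.38 ± 0.02, and takes the place of PCDHA2 among the first 5 alpha genes when levels are divided by the whole exon length. Own exon bases were 10557 for PCDHA4 and 12653 for PCDHA10 (1.09 ± 0.05 and 1.06 ± 0.03 CPM per own kb), against 2588 for PCDHA12. Before division by length PCDHA4 (15.2 CPM over the 6 libraries) and PCDHA10 (13.6 CPM) lay above PCDHA11 (11.9 CPM). PCDHA5, PCDHA6, PCDHA7, PCDHA8 and PCDHA9, which are neighbours on the chromosome, were the lowest 5 of the cluster, at means of 0.116 to 0.214 CPM per own kb over the 6 libraries. Before division by length PCDHA9 (1.18 CPM, 6900 own exon bases) lay above PCDHA13 (1.07 CPM, 2572 own exon bases). Antisense genes of the annotation overlap exons of 9 alpha genes, among them 48.6% of the exon bases of PCDHA1, 10.4% of PCDHA12 and 9.54% of PCDHA13. These antisense genes are not in the count table, and whether the counting used strand is not given in the sources used here.

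The beta cluster was dominated by PCDHB2, the highest of all 53 members per length, which took 45.6% of the summed CPM of the cluster. Its level was 8.27 ± 0.44 CPM per own kb in PEG and HS and 8.06 ± 0.39 in Control (SD, n = 3), and it ranked first of the 16 beta genes in all 6 libraries. PCDHB15 ranked second in all 6, at 3.19 ± 0.10 and 3.04 ± 0.20, and PCDHB5 was the third in all 6, at 2.35 ± 0.30 and 2.0 ± 0.05. The libraries of these 3 genes did not overlap with each other. PCDHB14 (1.21 ± 0.01 and 1.01 ± 0.10) and PCDHB10 (0.891 ± 0.185 and 0.967 ± 0.120) came next and exchanged places between libraries. PCDHB1, PCDHB6 and PCDHB8 were lowest, at 0.0441, 0.0848 and 0.0533 CPM per own kb. Before division by length PCDHB1 (0.352 CPM, 7973 exon bases) lay above PCDHB6 (0.274 CPM, 3231 bases) and PCDHB8 (0.147 CPM, 2750 bases). The place of PCDHB1 as the lowest thus rests on its annotated length. An antisense gene covers 43.9% of the exon bases of PCDHB2, and antisense genes touch 9 of the 16 beta genes. A read-through gene that covers 9.54% of PCDHB15 had 16 counts in 1 PEG and HS library and 0 in the other 5.

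In the gamma cluster the C-type gene PCDHGC3, which is known to bind AXIN1, and the variable gene PCDHGB7 shared the first place. PCDHGC3 had 7.17 ± 0.19 CPM per own kb in PEG and HS and 7.60 ± 0.43 in Control (SD, n = 3), and ranked first in 4 libraries. PCDHGB7 had 6.68 ± 0.58 and 7.60 ± 0.25 and ranked first in 2, so that the order of the pair was not set. PCDHGB6 (4.54 ± 0.16 and 4.56 ± 0.32), PCDHGA10 (3.86 ± 0.34 and 4.19 ± 0.06) and PCDHGB4 (3.96 ± 0.70 and 3.96 ± 0.32) made up the rest of the first 5 in every library. The 7 gamma B genes had a median of 1.73 CPM per own kb and none below 0.466, while the 12 gamma A genes had a median of 0.320. PCDHGA10 alone took 55.5% of the summed gamma A level. PCDHGA7 was the lowest gamma gene at 0.140, and PCDHGC5 the lowest C-type gene at 0.273 CPM per own kb. PCDHGC4, a C-type gene known to be needed for the survival of neurons, had 2.26 ± 0.18 CPM per own kb in PEG and HS and 2.25 ± 0.34 in Control. Order along the chromosome and level per own kb had a Spearman rho of 0.35 over the 15 alpha, 0.20 over the 16 beta and 0.45 over the 22 gamma genes, given as a description.

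The summed levels of the clusters differed little between the media. The alpha genes summed to 101, 102 and 97.5 CPM in the PEG and HS libraries and to 90.2, 93.8 and 95.7 CPM in the Control libraries. The media did not overlap, and the mean was 7.42% higher in PEG and HS. The beta genes summed to 76.2, 76.7 and 75.1 CPM with PEG and HS, against 73.9, 70.8 and 67.8 CPM in Control, again without overlap and 7.29% higher. The gamma genes summed to 126, 125 and 124 CPM with PEG and HS, against 131, 128 and 126 CPM in Control, overlapping, with a difference of -2.56%. No test was made of these sums. Within a cluster the first 3 genes held a steady share, 50.1% to 52.9% of the alpha level (PCDHAC2, PCDHA12 and PCDHA4), 68.7% to 72.0% of the beta level (PCDHB2, PCDHB15 and PCDHB5) and 49.6% to 53.3% of the gamma level (PCDHGC3, PCDHGB6 and PCDHGB7) over the 6 libraries. The 5 C-type genes summed to 53.6 to 55.7 CPM with the additives, against 53.6 to 58.4 CPM in Control. The 31 other genes within 500 kb of the clusters summed to 1760 to 1775 CPM with the additives, against 1659 to 1677 CPM in Control, also without overlap.

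**Figure D3:**
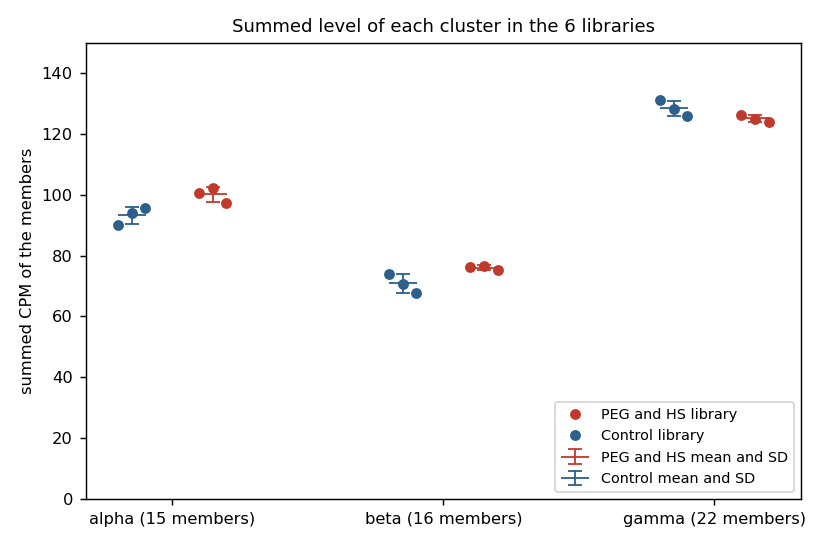
Summed CPM of the members (vertical axis) of the alpha, beta and gamma clusters (horizontal axis) in each library. Points are libraries, and the horizontal mark and bar are the mean and SD of 3 libraries of a medium; the alpha and beta points of PEG and HS lie above all Control points, while the gamma points overlap.

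PCDHA13, a variable alpha gene, had the largest difference of the members that were called. Its level was 1.96, 0.885 and 1.54 CPM in the PEG and HS libraries and 0.630, 0.923 and 0.499 CPM in the Control libraries. The second PEG and HS library lay within the Control range, so the media overlapped, and the counts behind these values were 17 to 66 per library. The log2 fold change was 1.11 (SE 0.32, edgeR adjusted p = 0.0186), a 2.15-fold difference with a 95% confidence interval from 1.34 to 3.45. The call was lost without PEG and HS library 1 (0.84, adjusted p = 0.122), Control library 1 (1.06, adjusted p = 0.0589) or Control library 3 (0.91, adjusted p = 0.0804).

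PCDHGB2, a variable gamma gene, was counted at 4.71, 5.77 and 5.29 CPM with PEG and HS, compared with 3.45, 3.42 and 4.66 CPM in Control. It was the only one of the 3 called genes without overlap between the media, though Control library 3 (4.66 CPM) came close to PEG and HS library 1 (4.71 CPM). The log2 fold change was 0.44 (SE 0.13, edgeR adjusted p = 0.0262), or 1.36-fold with an interval from 1.11 to 1.66. Without PEG and HS library 2 or 3 or Control library 1 or 2 the adjusted p was 0.104, 0.0622, 0.0955 and 0.113 in turn, so the call was lost each time.

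PCDHA12, the most used alpha gene per length, reached 17.4, 18.9 and 19.5 CPM with PEG and HS, compared with 13.1, 17.8 and 15.2 CPM in Control. The highest Control library lay above the lowest PEG and HS library. The log2 fold change was 0.27 (SE 0.09, edgeR adjusted p = 0.0368), or 1.2-fold with an interval from 1.06 to 1.37. It was 0.17 without Control library 1 (adjusted p = 0.157), and the call was also lost without PEG and HS library 2 (adjusted p = 0.0920), PEG and HS library 3 (adjusted p = 0.113) or Control library 3 (adjusted p = 0.100). None of the 3 calls was thus kept over all 6 omissions of a library.

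PCDHGB7, second of the gamma genes, moved the other way and lay just outside the threshold. Its levels were 18.7, 17.0 and 20.2 CPM with PEG and HS, below the 21.3, 21.8 and 20.4 CPM of Control in every library. The log2 fold change was -0.18 (SE 0.06, edgeR adjusted p = 0.0521). Its adjacent genes PCDHGA10 and PCDHGA11 had log2 fold changes of -0.12 (SE 0.07) and -0.16 (SE 0.17) and were not called.

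**Figure D4:**
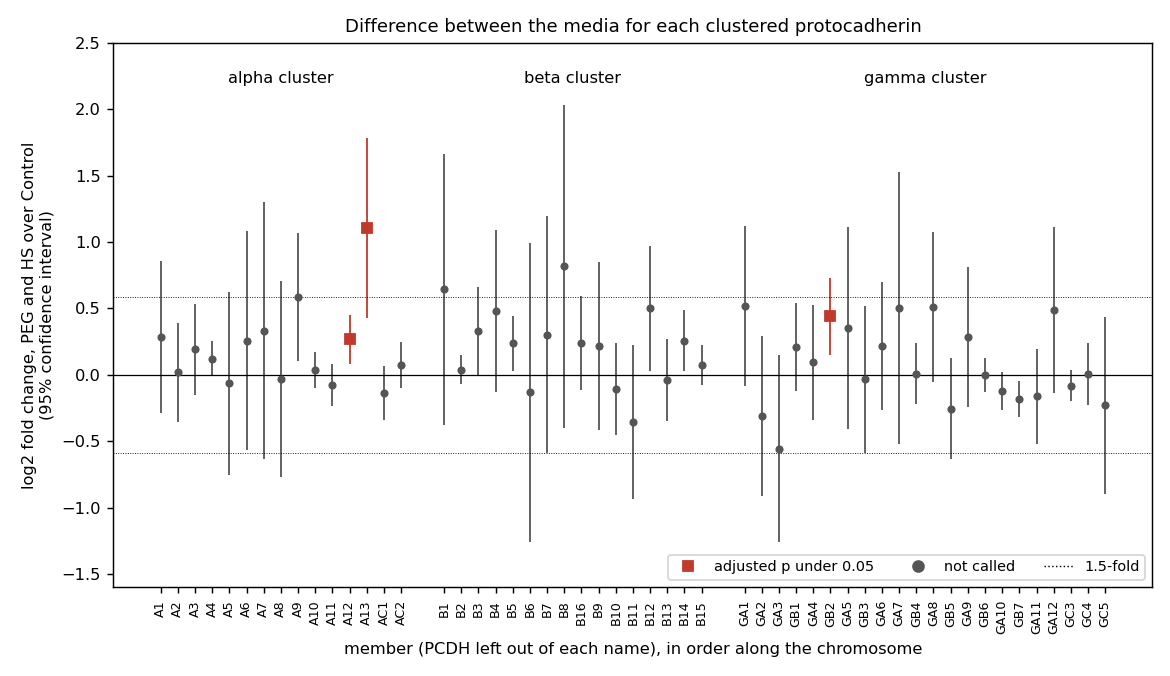
Log2 fold change of each of the 53 members, PEG and HS over Control (vertical axis), in order along the chromosome within each cluster (horizontal axis). Bars are 95% confidence intervals and dotted lines mark 1.5-fold; red squares are the 3 genes called, PCDHA12, PCDHA13 and PCDHGB2, all above 0, and the intervals are widest at genes with few counts such as PCDHB8.

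By cluster, 2 of 15 alpha (13.3%), 0 of 16 beta and 1 of 22 gamma genes (4.55%) were called, against 25.3% of all genes tested. In the beta cluster 3 genes had an unadjusted p under 0.05 by edgeR, all higher in PEG and HS, 0 by DESeq2 and 4 by limma-voom, and neither of the latter called any. With 1 library left out, edgeR called PCDHB4 without Control library 1 (0.94, adjusted p = 0.0147), PCDHB5 without PEG and HS library 3 (0.32, adjusted p = 0.0275) and PCDHB14 without Control library 3 (0.35, adjusted p = 0.0467), each higher in PEG and HS and each in that omission only. Of the 5 C-type genes none was called by edgeR, DESeq2 or limma-voom, and none had an unadjusted p under 0.05 by any of the 3. Libraries of different media did not overlap at 12 members, 22.6%, against 39.3% of all genes tested. At 10 of the 12 PEG and HS was higher, and at 2 lower, where 19.5% and 19.8% of all genes tested were higher and lower without overlap. The log2 fold change was above 0 for 35 members (66.0%) and for 50.9% of all genes tested, with medians of 0.12 and 0.0031. In the beta cluster 12 of 16 were above 0, with a median of 0.24, in the alpha cluster 11 of 15 with a median of 0.12, and in the gamma cluster 12 of 22 with a median of 0.0060. The genes of a cluster share sequence and a chromosomal stretch, so these counts are no independent draws.

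How small a difference could be seen depended on the level. All 11 members at 10 CPM or more had a 95% confidence interval within 1.5-fold in either direction, and 1 of them, PCDHA12, was called (9.09%, against 32.4% of all genes at that level). For PCDHB2 the interval ran from 0.951 to 1.11-fold, for PCDHGC3 from 0.871 to 1.02-fold and for PCDHGB6 from 0.913 to 1.09-fold. Among the 27 members from 1 to 10 CPM, 2 were called (7.41%, against 21.6%) and 12 had an interval within 1.5-fold. None of the 15 members under 1 CPM was called by edgeR or had an unadjusted p under 0.05. None had an interval within 1.5-fold, so a difference of that size in at least 1 direction was not excluded for any of them. For PCDHB8, with 3 to 7 counts per library, the interval ran from 0.758 to 4.09-fold.

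The non-clustered protocadherins, genes outside the clusters with a related extracellular part, included large differences between the media. Of 12 tested, 4 were called lower and 1 higher (41.7% called, against 25.3% of all genes tested). PCDH8 had 0.830, 1.10 and 1.21 CPM with PEG and HS, against 11.5, 12.7 and 13.5 CPM in Control, a log2 fold change of -3.59 (SE 0.13, edgeR adjusted p = 1.48e-11). PCDH7 had 2.76 to 3.9 CPM against 30.1 to 34.0 CPM (-3.28, SE 0.09), and PCDH18 17.6 to 18.8 CPM against 64.0 to 64.8 CPM (-1.82, SE 0.04). PCDH10 was lower as well (-0.94, SE 0.12). PCDH1, which lies within 500 kb of the clusters, was higher by 0.09 (SE 0.03, edgeR adjusted p = 0.0373). At all 5 the media were apart in every library. Whether the non-clustered genes differ from the clustered ones as a group was not tested.

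Regulators of the clusters were read from lists of their own. Of 11 genes for CTCF and cohesin, which bind the variable promoters and fold the locus, edgeR, DESeq2 and limma-voom each called 0, and edgeR gave 3 an unadjusted p under 0.05. Over all genes tested edgeR called 25.3%. CTCF itself had means of 146 CPM with the additives, against 147 CPM in Control (log2 fold change -0.0052, SE 0.03). Of 8 genes known for silencing the clusters, 1 was called (12.5%). This was DNMT3A, a DNA methyltransferase, which was higher (0.17, SE 0.03, edgeR adjusted p = 0.000226), at 230.1 to 230.8 CPM against 202 to 208 CPM. SMCHD1, a chromatin protein that holds the clusters silent, had 107 and 106 CPM (0.0046, SE 0.04).

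Among 16 genes for partners and processing of the proteins, 2 were called higher and 2 lower (25% called, against 25.3% of all genes tested). CYFIP2 and CYFIP1, subunits of the actin-regulating WAVE complex that binds the tails of some protocadherins, were higher by 0.21 (SE 0.03) and 0.14 (SE 0.03) on the log2 scale. BRK1, the smallest subunit of the same complex, was lower (-0.10, SE 0.03). PSENEN, a subunit of the gamma-secretase that cuts the membrane stub, was lower (-0.15, SE 0.05), a call that DESeq2 did not make. The kinases PTK2 and PTK2B, known to be held in check by the tails, were not called. Of the 29 other genes tested within 500 kb, 8 were called higher and 1 lower, with ARAP3 (0.46, SE 0.03), RELL2 (0.38, SE 0.05) and FCHSD1 (0.33, SE 0.04) the highest of those called and NDUFA2 (-0.13, SE 0.04) lower. DESeq2 called 7 higher and 0 lower, without RNF14 and NDUFA2. RELL2 and FCHSD1 overlap on the chromosome, so their counts are uncertain. The part of the neural progenitor markers, the neighbouring genes and the read assignment on shared exons in the members' values was not tested.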

How the data were processed

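Polyadenylated RNA of 6 libraries, 3 of PEG and HS and 3 of Control, was sequenced from stranded libraries. The authors trimmed reads with Trim Galore 0.6.7 and mapped them to GRCh38 with STAR 2.6.1 (per the submitters' processing notes) within the nf-core/rnaseq pipeline. They deposited raw counts per gene, 1 file per library, with no normalization or filter on level applied. The noncoding genes and the pseudogene that overlap exons of members were not among the 19977 genes counted. CPM and shares of genes rest on the genes counted. The counting tool used in that pipeline, its use of strand and its handling of reads that fit several genes are not given in the sources used here. Of the 19977 identifiers, 19916 matched GENCODE 44, which gave symbols, coordinates and exons, and 61 did not. The 16505 genes whose counts summed to 10 or more over the libraries were tested with edgeR 4.0.16 in R 4.3.3 (TMM scaling, glmQLFit and glmQLFTest without covariates). P-values were adjusted over them (Benjamini-Hochberg) and called at an adjusted p under 0.05. CPM are TMM-scaled, and the SE was taken as |log2 fold change| / √F. The 95% intervals use the degrees of freedom of the quasi-likelihood test, recovered from its F and p (median 14.6 over the members). Depth was 26991279 to 36185138 counts per library and the common biological coefficient of variation 3.12%, which resolves small differences at high counts and not at few. Levels per length used exon bases of all annotated transcripts that no other gene of the count table covers.

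The members and lists were chosen with earlier results of these data known. Genes named are the members called, the 5 with the highest CPM per kb in each cluster, members at 0 (there were 0) and, of each other list, the genes called, up to 3 in each direction; any further gene was picked with its values known. One gene of the list of partners is not reported here and was left out of the counts over that list. No test was made over the members as a set. The alternatives were DESeq2 1.42.0, limma-voom (limma 3.58.1), other normalizations, filters and thresholds, a replicate block and each library left out in turn. The scripts were tested on simulated counts. Promoter sequences came from RefSeq for 47 members.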

Additional observations from a re-analysis of the deposited data

How the results depend on the processing

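The 3 calls (PCDHA12, PCDHA13 and PCDHGB2) held with DESeq2, limma-voom, other normalizations and a replicate block, and with the other filters, except that at 1 CPM in 3 libraries PCDHA13 was not tested and PCDHA9 was called (0.58, edgeR adjusted p = 0.0399). With 1 library left out in turn, 1 to 3 members were called, 1 to 2 higher and 0 to 1 lower, the lower gene being PCDHGB7 (without PEG and HS library 3). The higher calls included PCDHB4 without Control library 1, where it was the only call and all 3 others were lost, PCDHB5 without PEG and HS library 3 and PCDHB14 without Control library 3. DESeq2 did not call PSENEN, NDUFA2 and RNF14 of the other lists, nor HES5 and HAND1, to which it gave no adjusted p. PCDHGB7 also made 1 lower call with RLE, upper-quartile scaling, no filter, filterByExpr or 1 CPM in 3 libraries. At an adjusted p under 0.01, and in a test against 1.5-fold, 0 members were called, and 7 genes of the other lists in place of 36 in the latter. With a replicate block 3 members were called, and the block changed no call of a member. Deviations of same-numbered libraries had a Pearson r of -0.015, 0.028 and 0.060 over 13557 genes. Differently numbered libraries gave -0.094 to 0.063. No shared deviation of same-numbered libraries was thus seen, which cannot show whether the samples were paired.

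The direction turned at 16 uncalled members, in 39 of 778 values recomputed, none of them a called gene, and the cause was not tested. Other than by leaving out a library these were PCDHA2 (-0.0041 with a replicate block), PCDHB6 (0.11 with limma-voom), PCDHGB6 (0.0024 with limma-voom and 0.0065 without scaling), PCDHGB4 (-0.0030 with upper-quartile scaling and -0.00017 at 1 CPM in 3 libraries) and PCDHGC4 (-0.0066 with upper-quartile scaling, -0.0021 with filterByExpr and -0.0035 at 1 CPM in 3 libraries). With 1 library left out, log2 fold changes ranged from -0.20 to 0.19 for PCDHA2, -0.39 to 0.16 for PCDHA5, -0.084 to 0.65 for PCDHA6, -0.24 to 0.14 for PCDHA8, -0.018 to 0.16 for PCDHAC2, -0.0055 to 0.065 for PCDHB2, -0.56 to 0.26 for PCDHB6, -0.060 to 0.56 for PCDHB9, -0.13 to 0.046 for PCDHB13, -0.017 to 0.24 for PCDHGA4, -0.25 to 0.67 for PCDHGA5, -0.31 to 0.16 for PCDHGB3, -0.15 to 0.11 for PCDHGB4, -0.052 to 0.044 for PCDHGB6, -0.080 to 0.12 for PCDHGC4 and -0.43 to 0.055 for PCDHGC5. The log2 ratios of the summed clusters kept their direction throughout, and the 15 members under 1 CPM are limited by depth.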
